A study of Mus musculus with 72 samples.

Results

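The genes described here are the mouse liver Period genes Per1, Per2 and Per3, the cryptochromes Cry1 and Cry2, Ciart (encoding CHRONO), and Bhlhe40 and Bhlhe41 (encoding DEC1 and DEC2), which together code for the repressing side of the circadian clock. They were chosen by name, as the rows of the count table whose Ensembl identifier maps to these symbols, and they are 8 of the 55573 genes in that table. The table held mRNA counts of bulk liver from 72 male C57BL/6 mice, 3 at each of 6 zeitgeber times (ZT, hours after lights on) in each of 4 groups of 18, all under 12 h of light and 12 h of dark. Wild-type (WT) mice were Bmal1 fl/fl, carrying floxed Bmal1 alleles without Cre. Liver knockout (LKO) mice were Bmal1 fl/fl Albumin-Cre, so that the floxed alleles were shared by every group and LKO differed by Cre and the deletion together. Each genotype was either specific pathogen free (SPF), with gut microbes, or germ free (GF), giving 4 groups named by housing and genotype. The study's methods put the mice at 10-14 weeks of age when individual housing began, some weeks before the livers were taken. Albumin-Cre acts in hepatocytes, and whether the other cells of the liver kept an intact Bmal1 was not measured. In bulk liver, fewer cells of a type and less RNA per cell cannot be told apart. The labels do not say which mice shared a litter or isolator, so the p-values measure the spread between these mice. In comparisons pooled over ZT, that spread includes the daily swing.

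In the clock, BMAL1 pairs with CLOCK or NPAS2, binds E-boxes in promoters, and switches on the genes of its own repressors. PER and CRY proteins accumulate, enter the nucleus together and inhibit the BMAL1 complex, CHRONO binds BMAL1 and also inhibits it, and DEC1 and DEC2 compete for E-boxes. Cry1 carries further elements bound by the REV-ERB repressors NR1D1 and NR1D2 and by ROR activators, D-boxes are bound by DBP, TEF, HLF and the repressor NFIL3, and Per1 and Per2 are known to respond also to glucocorticoids, feeding and body temperature. The question posed by the design was how each repressor gene behaved over the day without hepatocyte Bmal1, and whether gut microbes changed that.

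In mm10 coordinates, Per1 (ENSMUSG00000020893) lies at chr11:69095217-69109960 on the plus strand, Per2 (ENSMUSG00000055866) at chr1:91415982-91459324 on the minus strand and Per3 (ENSMUSG00000028957) at chr4:151003652-151044665 on the minus strand. Cry1 (ENSMUSG00000020038) lies at chr10:85131700-85185064 and Cry2 (ENSMUSG00000068742) at chr2:92403646-92434043, both on the minus strand. Ciart (ENSMUSG00000038550) lies at chr3:95878503-95882251 on the minus strand. Bhlhe40 (ENSMUSG00000030103) lies at chr6:108660629-108666925 on the plus strand, and Bhlhe41 (ENSMUSG00000030256) at chr6:145858243-145865558 on the minus strand. Counts were summed over exons. Per3 overlaps Camta1 on its own strand, and Cry2, Ciart, Bhlhe40 and Bhlhe41 each overlap 1 gene on the opposite strand. Whether the counting used strand was not stated, so reads in these overlaps are uncertain for those 5 genes.

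RefSeq promoters of build GRCm38.p6 matched 6 of the 8 genes, all but Per2 and Bhlhe40. The 250 bases before the RefSeq transcript start are printed for the 4 genes with the largest changes between genotypes, 5′ to 3′ on the strand of the gene, with motif matches in capitals. For Cry1, Ciart and Bhlhe41 that start lies inside the gene span given above, so these windows run into the span. The letters searched, on both strands, were CACGTG (E-box), CACGTT or its reverse complement AACGTG (E-box variant), TTATGTAA or TTACGTAA (D-box), and TGACGTCA (cyclic AMP element), and no matches overlapped. The Per3 window (chr4:151044666-151044915, minus strand) held a pair of D-box matches, the Cry1 window (chr10:85185055-85185304, minus strand) an E-box and an E-box variant, the Ciart window (chr3:95882229-95882478, minus strand) 3 E-boxes, and the Bhlhe41 window (chr6:145865421-145865670, minus strand) 1 E-box.
Per3: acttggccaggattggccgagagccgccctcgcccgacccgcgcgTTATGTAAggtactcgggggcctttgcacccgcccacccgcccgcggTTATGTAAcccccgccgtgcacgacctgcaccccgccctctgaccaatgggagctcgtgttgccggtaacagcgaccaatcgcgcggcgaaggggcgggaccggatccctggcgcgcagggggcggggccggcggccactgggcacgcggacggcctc
Cry1: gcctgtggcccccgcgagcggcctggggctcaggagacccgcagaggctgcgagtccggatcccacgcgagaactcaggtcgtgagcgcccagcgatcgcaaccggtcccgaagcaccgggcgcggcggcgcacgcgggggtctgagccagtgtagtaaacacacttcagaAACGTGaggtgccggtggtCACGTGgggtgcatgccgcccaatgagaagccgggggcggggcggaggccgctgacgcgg
Ciart: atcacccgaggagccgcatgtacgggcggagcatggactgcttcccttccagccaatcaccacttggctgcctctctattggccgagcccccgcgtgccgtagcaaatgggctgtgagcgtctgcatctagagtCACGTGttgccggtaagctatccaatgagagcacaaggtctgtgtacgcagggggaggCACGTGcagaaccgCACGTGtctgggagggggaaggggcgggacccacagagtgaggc
Bhlhe41: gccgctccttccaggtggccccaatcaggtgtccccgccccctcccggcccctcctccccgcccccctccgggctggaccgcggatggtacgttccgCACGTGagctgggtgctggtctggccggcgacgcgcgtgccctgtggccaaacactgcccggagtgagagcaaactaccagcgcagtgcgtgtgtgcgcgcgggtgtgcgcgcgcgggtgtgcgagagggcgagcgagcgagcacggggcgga
Counted from the RefSeq start, the Ciart E-boxes began at -116, -58 and -44, the Bhlhe41 E-box at -153, the Cry1 E-box at -60 with its variant at -79, and the Per3 D-boxes at -205 and -158. Windows not printed held an E-box at -166 before the first Per1 start, no match before the second Per1 start, and an E-box variant at -166 in Cry2. Among all 32851 promoters of the same length, 6.02% held CACGTG, 3.85% the variant, 0.931% a D-box and 1.55% the cyclic AMP element. A match describes letters and is not evidence of binding.

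Libraries held 17369927 to 22076113 assigned reads, with a median of 19106726, and the range of each group overlapped that of the others. Arntl, the gene of BMAL1, swung in SPF WT from 0.624-1.81 CPM (counts scaled to a common library size) at ZT10 to 33.4-39.9 at ZT22, and in GF LKO it stayed at 7.04-13.4 CPM in all livers. In SPF LKO it lay at 8.52-16.5 CPM in all livers but 1, which had 29.2. These are counts over the whole gene, with exons outside the deletion and cells without Cre. Expression went against the labels in 4 libraries. The library labelled SPF LKO ZT14 replicate 2 had 0.219 CPM of Npas2, the CLOCK paralogue, against 24 and 25 in the other livers of that group and time. The library labelled SPF LKO ZT18 replicate 1 had 1.82 CPM of Npas2 against 27.5-36.7, and 29.2 of Arntl against 11.5-11.9. The library labelled SPF WT ZT14 replicate 3 had 2.12 CPM of Arntl against 15.8-19.5. At ZT6, GF WT replicate 3 had 8.21 CPM of Arntl against 1.62-2.43. All 72 libraries were kept by their labels, and calls that changed without these 4, with values that moved by over 1.5 times, are given without them as well. The summed level of 7 hepatocyte markers other than Alb had a median of 27740 CPM in SPF WT, 27390 in SPF LKO, 36980 in GF WT and 33750 in GF LKO. Alb, the gene whose promoter drives Cre, had medians of 83670, 36390, 104300 and 32060 CPM in that order. In the doubted SPF LKO libraries Alb was 82810 CPM (ZT14 replicate 2) and 102100 (ZT18 replicate 1), against 24880-49630 in the other livers of that group. All 5 markers in each of the lists for endothelial, Kupffer, stellate, cholangiocyte and leukocyte cells had medians above 0 in every group. The summed cholangiocyte markers had a median of 53.7 CPM in SPF WT (33.3-97.8), 70.7 in SPF LKO (31-135.8), 43.8 in GF WT (27-58) and 91.0 in GF LKO (45-161.5). The part of these marker levels in the results that follow was not tested.

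Compared per length as RPKM (CPM per kilobase of summed exons), averaged over the 6 ZT, Bhlhe40 was the most abundant of the 8 in SPF WT liver at 20.4 ± 6.61 RPKM (SD, n = 18). Cry1 followed at 7.55 ± 5.53, Per2 at 5.26 ± 3.22, Cry2 at 4.96 ± 1.36 and Per1 at 4.61 ± 2.31. Each of these 4 lay closer to the next in the order than the SD of either, and these SDs include the daily swing. Per3 at 1.83 ± 1.46 and Ciart at 1.83 ± 2.05 RPKM were equal on this scale, and Bhlhe41 was scarcest at 0.297 ± 0.280. In SPF LKO the level of Cry1, 19.5 ± 3.59 RPKM, stood beside that of Bhlhe40, 19.8 ± 4.13, and they did not differ beyond their spread. Cry2 (6.39 ± 0.912), Per2 (5.09 ± 2.13) and Per1 (3.46 ± 2.24) came next, each within the larger SD of its neighbour. Per3 (0.748 ± 0.476), Ciart (0.381 ± 0.776) and Bhlhe41 (0.0384 ± 0.0355) closed the order. The Ciart level fell to 0.197 ± 0.205 RPKM in the 16 SPF LKO livers left without the doubted libraries, in the same place in the order. GF LKO kept Cry1 (22.1 ± 3.17) and Bhlhe40 (18.0 ± 3.88) at the top and Bhlhe41 (0.0178 ± 0.0172) at the bottom.

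**Figure D1:**
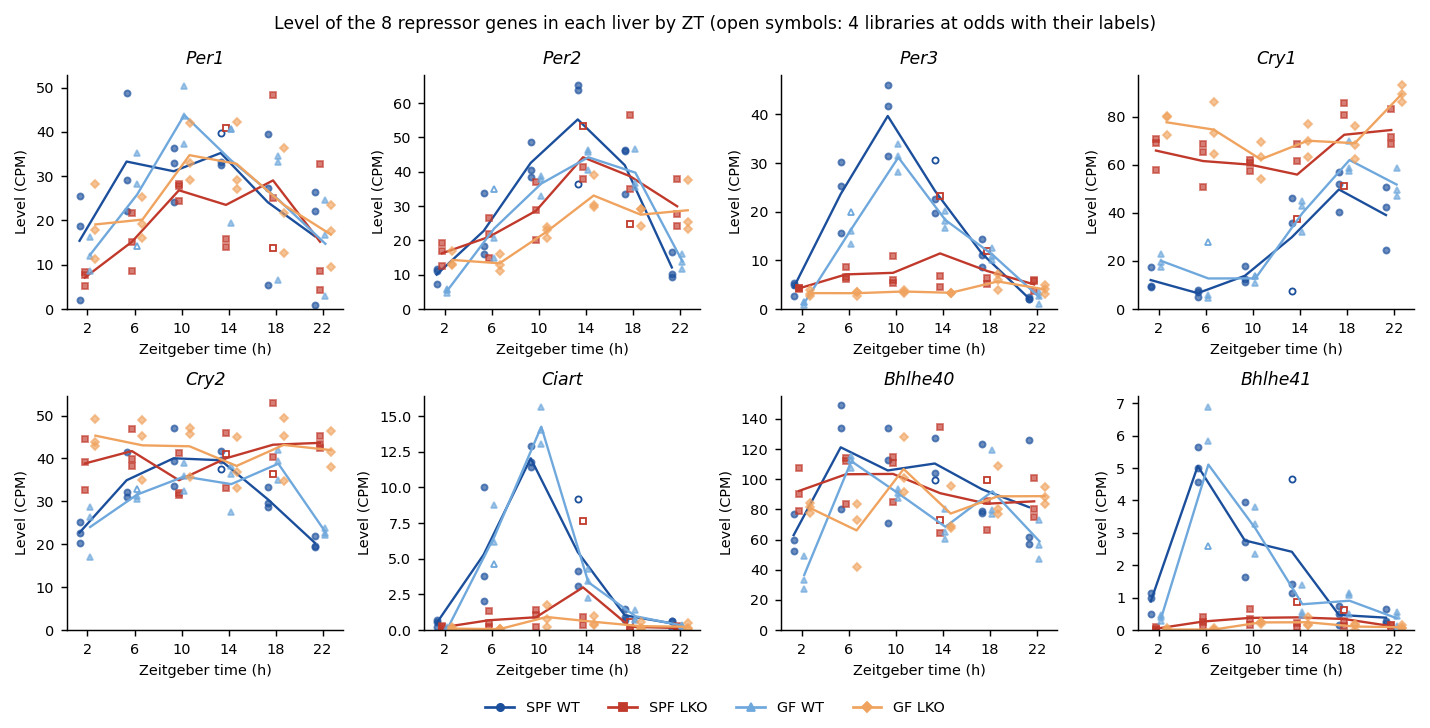
Level of each repressor gene in CPM (vertical axis) by zeitgeber time in h (horizontal axis) in single livers, with lines through the means of 3 livers per group and time, the groups coloured as in the legend. Open symbols are the 4 libraries at odds with their labels. Per3 reached a mean of 39.7 CPM at ZT10 in SPF WT and no more than 11.4 in SPF LKO (7.44 without the open symbols), whereas the lowest Cry1 mean was 6.61 CPM in SPF WT (ZT6) and 55.95 in SPF LKO (ZT14, or 60.08 at ZT10 without the open symbols).

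In WT liver the repressor genes did not peak together. A 24 h rhythm, tested as a cosine and sine over ZT in edgeR on all 72 libraries, passed an adjusted p of 0.05 for 7 of the 8 genes in SPF WT, beside 21.9% of all genes tested, and for all 8 in GF WT, beside 29.7%. By least squares on log2 CPM, the SPF WT curves peaked at ZT 8.6 ± 0.5 h (SE) for Bhlhe41, 10.6 ± 0.4 for Ciart, 10.8 ± 0.2 for Per3, 11.3 ± 0.4 for Cry2, 11.4 ± 1.5 for Bhlhe40, 13.2 ± 0.4 for Per2 and 18.4 ± 0.6 for Cry1. Neighbours from Ciart to Bhlhe40 in this order differed by about their SEs or less, and Cry1 peaked latest. Amplitude, the height of the fitted peak above the fitted mean in log2 units, ran in SPF WT from 0.36 ± 0.14 for Bhlhe40 through 0.52 ± 0.06 for Cry2, 1.31 ± 0.14 for Per2, 1.39 ± 0.23 for Cry1, 1.86 ± 0.26 for Bhlhe41 and 2.01 ± 0.13 for Per3 to 2.59 ± 0.3 for Ciart. In GF WT the order was alike, from 0.35 ± 0.07 for Cry2 and 0.46 ± 0.09 for Bhlhe40 to 2.23 ± 0.14 for Per3 and 3.37 ± 0.27 for Ciart. Per1 had an amplitude of 1.12 ± 0.51 in SPF WT, where its rhythm did not pass (adjusted p = 0.209), and of 1.02 ± 0.32 in GF WT (adjusted p = 0.0427). Leaving out any of the 3 replicate numbers ended the Per1 call in GF WT (adjusted p = 0.0526 to 0.206), and leaving out number 1 or 2 ended the Bhlhe40 call in SPF WT (adjusted p up to 0.402).

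In LKO liver fewer of these rhythms passed. The test used a single spread per gene from all 72 libraries, so LKO rhythms were judged against scatter that includes WT livers. A rhythm not called in LKO is therefore not shown to be absent. The rhythm was called for 4 of 8 genes in SPF LKO (Per2, Per3, Ciart and Bhlhe41), beside 23.4% of all genes, and for 3 of 8 in GF LKO (Per2, Ciart and Bhlhe41), beside 29.8%. Without the 4 libraries at odds with their labels, the SPF LKO calls were Per2 and Ciart, beside 17.4% of all genes, with Per3 at an adjusted p of 0.104 and Bhlhe41 at 0.0938. The library labelled SPF LKO ZT14 replicate 2 alone had 23.2 CPM of Per3 against 4.44-6.70 in the other livers of that time. Per2 was called in both LKO groups under every replicate number left out. In SPF LKO, Ciart and Per3 were lost without number 2 and Bhlhe41 without number 1 or 2 (adjusted p up to 0.448). In GF LKO, Ciart was lost under each number left out (adjusted p = 0.125 to 0.224) and Bhlhe41 without number 1 or 2 (up to 0.354). The fitted amplitude was lower in LKO than in WT for all 8 genes in both SPF and GF mice, 16 of 16 comparisons, and in 14 to 16 of them when libraries were left out. The share of all genes with a lower amplitude was not computed, and the comparisons share livers. The difference was within its SE for Per1 in SPF (-0.22 ± 0.59) and Bhlhe41 in GF (-0.32 ± 0.4). It was close to its SE for Per1 in GF (-0.45 ± 0.37) and Bhlhe40 in SPF (-0.19 ± 0.18). The amplitudes of Ciart and Bhlhe41 in LKO rest on few counts. The rhythm itself differed between LKO and WT in 5 of 8 genes in SPF (Per2, Per3, Cry1, Cry2 and Bhlhe41), beside 1.68% of all genes, and in 6 of 8 in GF (the same 5 and Ciart), beside 5.76%. The Ciart call in GF was lost under each replicate number left out (adjusted p = 0.0643 to 0.355), and the Bhlhe41 call in SPF was lost without the 4 libraries (adjusted p = 0.0722), where 3.13% of all genes were called.

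**Figure D2:**
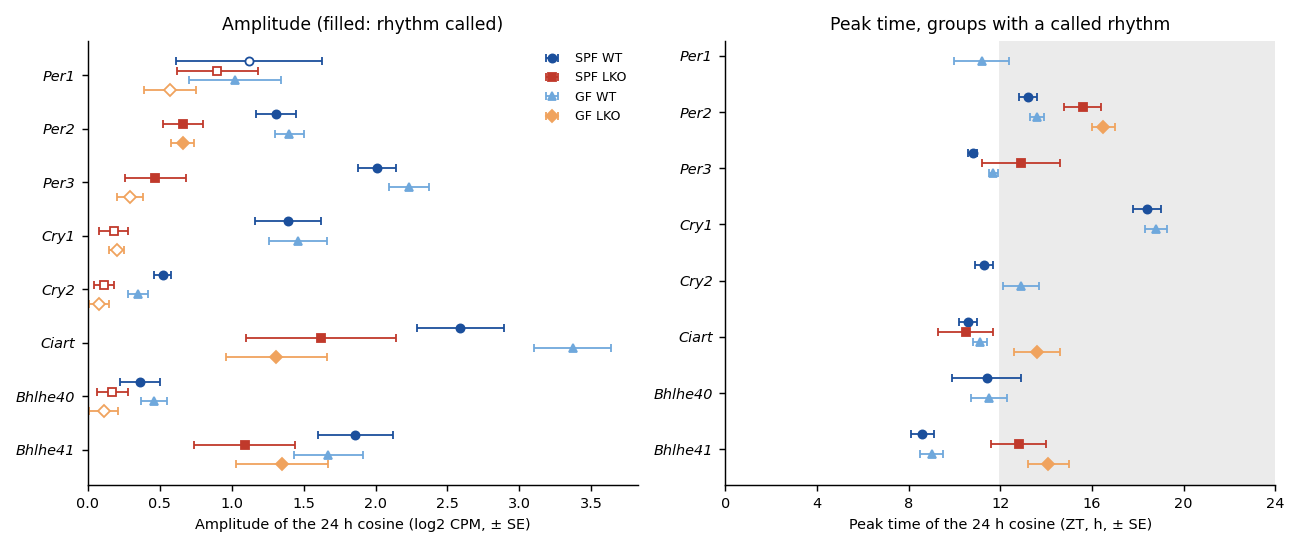
Left, amplitude of the fitted 24 h cosine in log2 CPM (± SE) for each gene and group, with filled symbols where the edgeR rhythm test passed an adjusted p of 0.05. Right, peak time in h (± SE) for groups with a called rhythm, the shaded span being the dark phase. Every LKO amplitude lies left of the WT amplitude of the same housing, and the Per2 peak lies later in LKO (15.6 and 16.5 h) than in WT (13.2 and 13.6 h).

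Per2, whose product forms the core repressor complex with CRY, kept a rhythm of lower amplitude and a later peak in LKO. In SPF WT it had 11.7, 7.25 and 11.1 CPM at ZT2 and 64, 65.3 and 36.5 at ZT14, the last value from the library at odds with its label. In SPF LKO it had 16.9, 19.2 and 12.6 CPM at ZT2 and 37.8, 53.5 and 41.4 at ZT14. The ZT2 values were higher in LKO without overlap, and the ZT14 groups overlapped. The ZT2 difference was called by DESeq2 and not by edgeR with all libraries. Amplitude was 1.31 ± 0.14 in SPF WT and 0.66 ± 0.14 in SPF LKO, and 1.40 ± 0.1 in GF WT and 0.66 ± 0.08 in GF LKO, while the peak came 2.3 ± 0.9 h later in SPF LKO and 2.9 ± 0.5 h later in GF LKO. The rhythm difference passed in both housings (edgeR adjusted p = 0.0021 in SPF and 3.26e-05 in GF), although in SPF it was lost without replicate number 1 or 3 (adjusted p up to 0.234). At ZT22, after the WT peak, Per2 stood at 10.1, 9.48 and 16.8 CPM in SPF WT and at 27.8, 24.2 and 37.8 in SPF LKO. This was a log2 fold change of 1.31 ± 0.25 (adjusted p = 0.00744), with no overlap. Averaged over the day the level did not pass, at -0.04 ± 0.25 in SPF (adjusted p = 0.929) and -0.22 ± 0.25 in GF (adjusted p = 0.545).

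Per3, a PER paralogue that is not required for rhythmicity, had a lower level and a smaller swing in LKO. In SPF WT it rose from 2.05, 2.11 and 2.49 CPM at ZT22 to 31.4, 46 and 41.7 at ZT10, a ratio of means of 17.9. In SPF LKO it had 3.63, 5.68 and 5.88 CPM at ZT22 and 6.06, 10.9 and 5.35 at ZT10. The knockout livers lay above WT at ZT22 and below WT at ZT10, without overlap at either time. The ZT22 difference was called by DESeq2 and not by edgeR with all libraries. At ZT2 the means were 4.42 CPM in SPF WT and 4.24 in SPF LKO. In GF LKO Per3 ran from 2.75 to 7.23 CPM over all 18 livers, against 0.912 to 33.9 in GF WT. At ZT10 the log2 fold change was -2.40 ± 0.22 in SPF (adjusted p = 6.4e-06) and -3.11 ± 0.24 in GF (adjusted p = 7.64e-07). Pooled over ZT it was -1.29 ± 0.35 in SPF (adjusted p = 0.00552) and -1.80 ± 0.35 in GF (adjusted p = 8.62e-05). The pooled SPF call was lost without replicate number 1 or 3 (adjusted p up to 0.114). The rhythm difference passed in SPF (adjusted p = 2.92e-06) and GF (adjusted p = 6.47e-10), with amplitudes of 2.01 ± 0.13 against 0.47 ± 0.21 and 2.23 ± 0.14 against 0.29 ± 0.09. The remaining rhythm in SPF LKO was called with all libraries (adjusted p = 0.00517). Without the doubted libraries it was not called (adjusted p = 0.104), and its amplitude was 0.30 ± 0.12.

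Per1, the PER gene with the fastest known response to hormones and other cues, showed no called difference between genotypes. Its livers scattered widely within a group and time. SPF WT had 18.7, 2.11 and 25.5 CPM at ZT2 and 22.1, 0.862 and 26.4 at ZT22. SPF LKO had 8.27, 7.72 and 5.32 CPM at ZT2 and 4.22, 8.49 and 32.9 at ZT22. The genotypes overlapped at both times. Over all ZT, SPF WT livers ran from 0.862 to 48.8 CPM with a median of 26.9, SPF LKO livers from 4.22 to 48.4 with a median of 15.5, GF WT livers from 2.91 to 50.5 with a median of 26.4, and GF LKO livers from 9.48 to 42.4 with a median of 24.4. The pooled log2 fold change was -0.41 ± 0.33 in SPF (adjusted p = 0.397) and -0.07 ± 0.25 in GF (adjusted p = 0.863). At ZT6 in SPF the values were 48.8, 29.1 and 22.0 CPM in WT and 15.2, 21.7 and 8.69 in LKO (log2 fold change -1.14 ± 0.38, adjusted p = 0.0944). The groups did not overlap, and without the doubted GF WT library of that time, which shares the estimate of spread, the same difference was called (adjusted p = 0.0404). A genotype difference in the 24 h pattern was not detectable at this spread (adjusted p = 0.679 in SPF and 0.862 in GF). With no filter on low counts Per1 was called as rhythmic in SPF WT (adjusted p = 1.95e-19), but that fit gave no weight to the scatter of each gene's own livers. It tested Per1 against a quasi-likelihood dispersion, the spread relative to the fitted model, of 0.677, where Per1's own was 14.3 and the fit with the filter used 13.2.

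Cry1 was higher in LKO than in WT, and its rhythm was not called there (adjusted p = 0.588 in SPF LKO and 0.532 in GF LKO). It is the cryptochrome with the stronger and later repression of the BMAL1 complex. In SPF WT it fell to 8.01, 6.95 and 4.88 CPM at ZT6 and rose to 51.9, 57 and 40.3 at ZT18. In SPF LKO it had 50.8, 68.8 and 65.2 CPM at ZT6 and 51.1, 85.8 and 80.7 at ZT18. The ZT6 groups lay far apart, and the ZT18 groups overlapped through the library labelled SPF LKO ZT18 replicate 1 (51.1 CPM). The log2 fold change was 3.21 ± 0.51 at ZT6 in SPF (adjusted p = 0.00181) and 0.55 ± 0.19 at ZT18 (adjusted p = 0.324). In GF at ZT6 it was 2.54 ± 0.5 (adjusted p = 0.00478), where replicate 3 of GF WT had 27.8 CPM against 4.67 and 5.66 in the other livers, and 3.85 ± 0.23 without the doubted libraries (adjusted p = 6.55e-07). Pooled over ZT, Cry1 rose by 1.37 ± 0.26 on the log2 scale in SPF LKO (adjusted p = 0.000143) and by 1.16 ± 0.24 in GF LKO (adjusted p = 0.000213). Amplitude was 1.39 ± 0.23 in SPF WT against 0.18 ± 0.1 in SPF LKO, and 1.46 ± 0.2 in GF WT against 0.20 ± 0.05 in GF LKO. The rhythm difference passed in SPF (adjusted p = 0.00015) and GF (adjusted p = 0.000144), and in both it was lost without replicate number 1 or 2 (adjusted p up to 0.062 in SPF and 0.115 in GF). Without number 3 it was called in SPF (edgeR adjusted p = 2.19e-06) and in GF (3.57e-08). Number 3 includes the doubted SPF WT ZT14 library, with 7.46 CPM of Cry1 against 35.8-46.4, and the GF WT ZT6 library named above.

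Cry2, the other cryptochrome, changed the same way by smaller steps. SPF WT livers had 19.6, 22.0 and 19.4 CPM at ZT22, and SPF LKO livers 43.3, 42.4 and 45.2. At ZT10 the values were 33.5, 47.2 and 39.4 in SPF WT and 31.5, 41.4 and 31.9 in SPF LKO. The genotypes were apart at ZT22 and overlapped at ZT10. At ZT22 the log2 fold change was 1.10 ± 0.11 in SPF (adjusted p = 3.24e-05) and 0.87 ± 0.11 in GF (adjusted p = 0.000205). Pooled, it was 0.37 ± 0.1 in SPF (adjusted p = 0.00677, or 0.0802 without replicate number 3) and 0.45 ± 0.09 in GF (adjusted p = 0.000123). Amplitude was 0.52 ± 0.06 in SPF WT against 0.11 ± 0.07 in SPF LKO, and 0.35 ± 0.07 in GF WT against 0.08 ± 0.07 in GF LKO, with a rhythm difference in SPF (adjusted p = 6.57e-05) and in GF (adjusted p = 0.00865). The GF rhythm difference was lost without replicate number 1 or 2 (adjusted p up to 0.324).

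Ciart, the CHRONO gene with the 3 E-boxes printed above, was nearly absent from most LKO livers. At ZT10 it had 12.9, 11.4 and 11.8 CPM in SPF WT and 1.05, 1.41 and 0.243 in SPF LKO, and 15.7, 13.1 and 14.1 in GF WT and 0.251, 1.73 and 0.784 in GF LKO. No LKO liver of ZT10 reached a WT liver. Because its counts were low, ratios of summed counts are given with exact 95% intervals that cover counting error only. At ZT10, 57 counts in SPF LKO stood against 692 in SPF WT, a ratio of 0.0761 (0.0570 to 0.0998), and 54 against 780 in GF, a ratio of 0.0644 (0.0480 to 0.0849). At ZT6, 4 counts in GF LKO stood against 325 in GF WT, a ratio of 0.0110 (0.00297 to 0.0283). At ZT2 all groups were low and the GF ratio, 6 counts against 3, had an interval of 0.387 to 11.2. At ZT14 the library labelled SPF LKO replicate 2 held 7.67 CPM against 0.390 and 0.934. Pooled, the log2 fold change was -2.30 ± 0.59 in SPF (adjusted p = 0.00351) and -3.51 ± 0.61 in GF (adjusted p = 1.74e-05). The SPF value was -3.08 ± 0.58 without the doubted libraries (adjusted p = 7.36e-05), and it was not called without replicate number 1 or 3 (adjusted p up to 0.097). The GF call was lost without replicate number 2 or 3, where Ciart no longer passed the count filter.

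Bhlhe41, the DEC2 gene, was far lower in LKO than in WT at ZT2, ZT6 and ZT10, and Bhlhe40, the DEC1 gene, did not pass the pooled test. Bhlhe41 at ZT6 had 4.99, 4.55 and 5.64 CPM in SPF WT and 0.401, 0.131 and 0.265 in SPF LKO, with 319 summed counts against 18 and a ratio of 0.0523 (0.0306 to 0.0840). In GF at ZT6 it had 6.89, 5.85 and 2.58 CPM in WT and 0, 0 and 0.0540 in LKO, which was 1 count against 254 and a ratio of 0.0035 (8.83e-05 to 0.0197). At ZT18 in SPF the counts were 21 against 26, a ratio of 0.693 (0.371 to 1.28), and the genotypes overlapped. Pooled in SPF the log2 fold change was -2.96 ± 0.45 (adjusted p = 4.47e-06). In GF, Bhlhe41 did not pass the filter on low counts, and neither did it in SPF without the doubted libraries or without replicate number 2. The Bhlhe41 rhythm difference passed in SPF (adjusted p = 0.0293) and GF (adjusted p = 0.0493), and in both it was lost without replicate number 1 or 2 (adjusted p up to 0.38 in SPF and 0.582 in GF). Bhlhe40 had 80.5, 149 and 134 CPM at ZT6 in SPF WT and 114, 83.8 and 112 in SPF LKO, which overlapped. Its pooled log2 fold change was -0.04 ± 0.13 in SPF (adjusted p = 0.868) and 0.15 ± 0.15 in GF (adjusted p = 0.468). Bhlhe40 was called at a single time and housing, ZT2 in GF, with 33.2, 49.3 and 27.2 CPM in WT and 77.7, 84.0 and 81.6 in LKO (log2 fold change 1.14 ± 0.2, adjusted p = 0.0036).

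Counted over the 8 genes, the pooled comparison of LKO with WT called 5 of 8 in SPF, beside 23.1% of all genes tested, of which Cry1 and Cry2 were higher (11.6% of all genes) and Per3, Ciart and Bhlhe41 lower (11.5%). In GF it called 4 of the 7 genes tested, beside 30.8%, with Cry1 and Cry2 higher (15.6% of all genes) and Per3 and Ciart lower (15.2%). Bhlhe41 was the gene not tested there, and DESeq2 called it lower. The test of whether GF and SPF mice differed in the genotype effect called 0 of 8, beside 0.438% of all genes, with 0 at an unadjusted p under 0.05 and 0 called by DESeq2. Its values ran from -1.21 ± 0.88 for Ciart to 0.33 ± 0.42 for Per1, so differences of about those errors could not be resolved.

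Taken ZT by ZT, 14 of the 45 tests that passed the filter were called in SPF, beside 4.92% of all tests, and 20 of 45 in GF, beside 7.99%. Cry1 was higher in LKO at ZT2, ZT6, ZT10 and ZT22 in both housings. Per3 was lower at ZT6 and ZT10 in both, with a log2 fold change at ZT6 of -1.73 ± 0.23 in SPF (adjusted p = 0.000547) and -2.34 ± 0.25 in GF (adjusted p = 7.14e-05). Ciart was also lower at ZT6 and ZT10 in both housings, and Bhlhe41 at ZT2, ZT6 and ZT10 in both. Cry2 was higher at ZT2 and ZT22 in both, and Per2 at ZT22 in both. In GF at ZT2 Per2 was higher in LKO, with 16.9, 12.9 and 13.1 CPM against 5.47, 4.65 and 5.85 in WT (log2 fold change 1.42 ± 0.21, adjusted p = 0.00133). Per3 was also higher there, with 2.78, 3.04 and 4.0 CPM against 0.912, 1.5 and 1.35 (1.36 ± 0.29, adjusted p = 0.0151). Per3 was called in opposite directions at ZT2 and ZT10 in GF.

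Of these 34 calls, 24 held when each of the 12 livers of that ZT was left out in turn. In SPF, Cry2 at ZT2 was lost without WT replicate 1 or 3 or LKO replicate 1 (adjusted p up to 0.0717), Ciart at ZT6 without LKO replicate 2 or 3 (up to 0.0575) and Cry1 at ZT22 without LKO replicate 2 (0.0795). In GF, Per3 at ZT2 was lost without WT replicate 3 or LKO replicate 3 (adjusted p up to 0.0795), Bhlhe41 at ZT2 without replicate 1 or 2 of either genotype (up to 0.106), Per2 at ZT10 without WT replicate 1 or 3 or LKO replicate 3 (up to 0.0694) and Per2 at ZT22 without WT replicate 1 or 2 or LKO replicate 3 (up to 0.126). Per3 at ZT14 was lost without any of its livers but WT replicate 2 (up to 0.0646), Bhlhe41 at ZT18 without any but WT replicate 1 (up to 0.102) and Cry1 at ZT22 without any of its 6 livers (up to 0.171).

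At ZT14 in SPF no member was called, and neither was any of the 13317 genes tested (0%), with a Per3 value of -1.09 ± 0.43 (adjusted p = 0.387), and at ZT18 none was called beside 0.015% of all genes. Each of these times holds 1 or more of the doubted libraries. Without them, 5 members were called at ZT14, beside 5.51% of all genes. Per2 was then at -0.70 ± 0.14 (adjusted p = 0.0115), Per3 at -1.92 ± 0.19 (adjusted p = 0.0001), Cry1 at 0.68 ± 0.18 (adjusted p = 0.0463), Ciart at -2.44 ± 0.49 (adjusted p = 0.0108) and Bhlhe41 at -3.03 ± 0.7 (adjusted p = 0.0242). At ZT18, 4 members were called without them, beside 4.63% of all genes, with Cry1 at 0.75 ± 0.15 (adjusted p = 0.0103) and Per3 at -0.97 ± 0.25 (adjusted p = 0.0468). In GF at ZT14, Per3 was the member called with all libraries (-2.45 ± 0.48, adjusted p = 0.0146, beside 6.1% of all genes), and Per2, Cry1 and Ciart were called with it once the doubted SPF libraries, which share the estimate of spread, were left out, beside 13.6%.

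**Figure D3:**
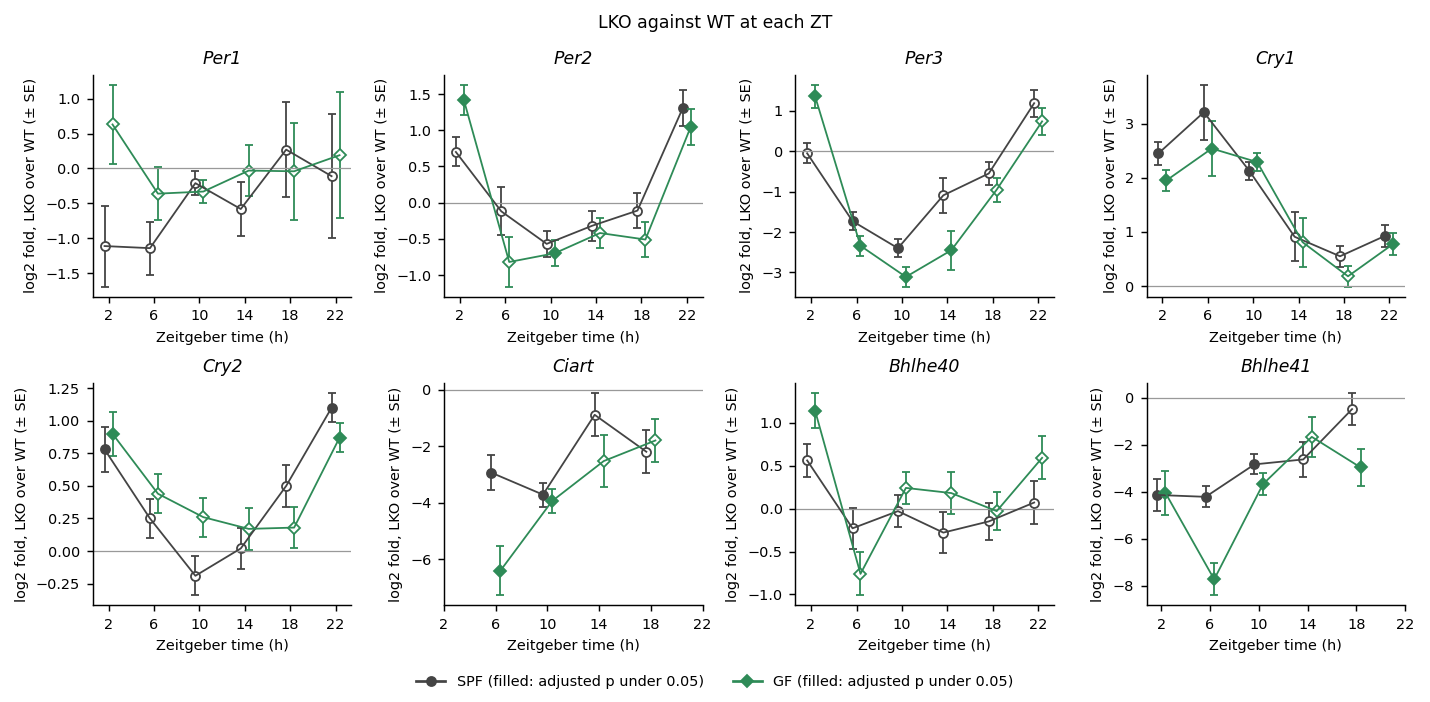
Log2 fold change of LKO over WT (± SE, vertical axis) from the edgeR fit of each zeitgeber time in h (horizontal axis), for SPF and GF mice, 3 livers per genotype and time, with filled symbols at an adjusted p under 0.05. Cry1 lies above 0 at every ZT, Per3 falls to -2.4 in SPF and -3.11 in GF at ZT10, and Ciart and Bhlhe41 have no value where they did not pass the count filter. Fitted values for near-zero counts, such as Bhlhe41 at ZT6 in GF, depend on the prior count.

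Between GF and SPF mice fewer members passed than between genotypes, in comparisons that use the same livers. Pooled over ZT, GF against SPF called 0 of 8 members in WT, beside 31.8% of all genes, with 1 at an unadjusted p under 0.05 (Bhlhe40, -0.34 ± 0.17, adjusted p = 0.112) and 0 called by DESeq2. When the 24 means of group and ZT were modelled, which takes the daily swing out of the spread, 3 members were called in WT, beside 41% of all genes. These were Per3 at -0.50 ± 0.15 (adjusted p = 0.00504), Cry1 at 0.45 ± 0.15 (adjusted p = 0.0131) and Bhlhe40 at -0.38 ± 0.11 (adjusted p = 0.00354). In LKO the pooled test called 1 of the 6 members tested, Per3, beside 36.4% of all genes. Per3 ran from 3.63 to 23.2 CPM with a median of 5.97 in SPF LKO, and from 2.75 to 7.23 with a median of 3.51 in GF LKO, so the groups overlapped. Its log2 fold change was -0.89 ± 0.19 (adjusted p = 0.000345), and -0.61 ± 0.13 without the doubted libraries (adjusted p = 0.000486). With the 24 means, Per2 (-0.36 ± 0.11, adjusted p = 0.00771) and Bhlhe41 (-1.31 ± 0.47, adjusted p = 0.0228) were called as well, beside 40.1% of all genes.

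By ZT, GF against SPF called 4 of 45 tests in WT, beside 2.89% of all tests, and all 4 fell at ZT2, where 10.1% of all genes were called. Per3 had 5.45, 2.76 and 5.03 CPM in SPF WT and 0.912, 1.5 and 1.35 in GF WT, with no overlap (log2 fold change -1.79 ± 0.28, adjusted p = 0.00358). Per2 was lower at -0.91 ± 0.21 (adjusted p = 0.0193), and Bhlhe40 was lower at -0.77 ± 0.2 (adjusted p = 0.0265). Cry1, the latest of the members to peak, was higher at 0.74 ± 0.21 (adjusted p = 0.039), with 8.98, 17.6 and 9.61 CPM in SPF WT and 19.5, 17.5 and 23 in GF WT, which overlapped. The Per3 call held when any of the 12 livers of ZT2 was left out, and the other calls did not. Per2 was lost without SPF WT replicate 1 or 3 or GF WT replicate 2 (adjusted p up to 0.0702), Bhlhe40 without SPF WT replicate 1 or GF WT replicate 1 or 3 (up to 0.0976), and Cry1 without any of 5 livers, SPF WT replicates 1 and 3, GF WT replicates 1 and 3 and GF LKO replicate 3 (up to 0.141). In LKO, 0 of 45 tests were called, beside 2.71% of all tests, with 9 at an unadjusted p under 0.05 and 4 called by DESeq2. Without the doubted libraries, Per3 (-1.11 ± 0.24, adjusted p = 0.0345) and Bhlhe41 (-3.49 ± 0.8, adjusted p = 0.0409) were called at ZT6 in LKO, beside 2.76% of all genes, and Per2 (-0.55 ± 0.13, adjusted p = 0.0461) joined the calls in WT at ZT14. Peak times of GF WT and SPF WT differed by 0.9 ± 0.3 h for Per3, 1.5 ± 0.9 h for Cry2 and 0.5 h or less for the other 6 genes. The rhythm did not pass as different between GF and SPF in WT for any member (0 of 8, beside 0.143% of all genes, 2 at an unadjusted p under 0.05, 0 called by DESeq2, which gave no adjusted p for Ciart and Bhlhe41) or in LKO (0 of 8, beside 2.34%, 1 at an unadjusted p under 0.05, 0 called by DESeq2). Tested at each ZT, the genotype effect differed by housing in 0 of 45, beside 0.00742% of all tests, with 6 at an unadjusted p under 0.05. The same test on the rhythm called 0 of 8, beside 0% of all genes, with 2 at an unadjusted p under 0.05. DESeq2 was not run for these last comparisons, which were added after the values were seen.

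Among 13 other clock genes, including the activators, the REV-ERB genes and the D-box factors, 12 were tested in SPF, of which 2 were higher and 3 lower in LKO (median log2 fold change -0.08, against -0.01 over all genes). In GF 11 were tested, of which 3 were higher and 4 lower (median -0.40, against 0.01). Npas2, the CLOCK paralogue, was higher at 3.25 ± 0.52 in SPF (adjusted p = 1.09e-05) and 2.83 ± 0.47 in GF (adjusted p = 7.99e-06). Nr1d1, encoding the REV-ERB alpha repressor, was lower at -2.93 ± 0.53 (adjusted p = 5.93e-05) and -2.80 ± 0.48 (adjusted p = 1.27e-05), and Nr1d2 at -1.93 ± 0.31 (adjusted p = 1.06e-05) and -2.48 ± 0.28 (adjusted p = 4.45e-09). Dbp, the D-box activator, was lower at -2.29 ± 0.53 (adjusted p = 0.00135) and -2.78 ± 0.57 (adjusted p = 0.000183). A rhythm was called for 11 of 12 of these genes in each WT group, beside 21.9% of all genes in SPF WT and 29.7% in GF WT, and for 4 of 12 in each LKO group, beside 23.4% in SPF LKO and 29.8% in GF LKO. Nr1d1 and Nr1d2 were called in all 4 groups. Of the 15 genes for enzymes and partners that modify PER and CRY proteins, 2 were higher and 1 lower in SPF (median 0.01), and 3 higher and 3 lower in GF (median 0.02). Usp2, a deubiquitinase, was lower at -0.97 ± 0.36 in SPF (adjusted p = 0.0463) and -1.20 ± 0.42 in GF (adjusted p = 0.0264). Fbxl21, an F-box protein of CRY turnover, was higher at 0.33 ± 0.09 (adjusted p = 0.00911) and 0.45 ± 0.1 (adjusted p = 0.000709). The counts of higher and lower genes, against 23.1% and 30.8% of all genes, describe the lists and carry no test of their own.

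Likeness of pattern was described by Pearson's r over the 24 means of group and ZT, among 10629 genes whose mean log2 CPM was 1 or more. Those most like Per3 were Trak1 (0.929), Stk35 (0.928) and Tef (0.924), and those most like Cry1 were Desi2 (0.944) and Ppard (0.929). For Ciart they were Trim24 (0.916), Nrg4 (0.915) and Aqp11 (0.912), for Bhlhe41 Efhd2 (0.928), 5031439G07Rik (0.915) and Lipg (0.912) and for Per2 Marveld1 (0.905), Baz1b (0.889) and Wee1 (0.877). Per1 ran with Vkorc1l1 (0.865), 1700001L05Rik (0.862) and Rnaseh2a (0.84), Cry2 with Ttc38 (0.775), Frrs1 (0.769) and Slc18a1 (0.758) and Bhlhe40 with Sertad1 (0.749), Wee1 (0.718) and Cdc42se1 (0.692). The lowest r was that of Rhoj for Per1 (-0.838), Gm4952 for Per2 (-0.863), Arl4a for Per3 (-0.909), Jade1 for Cry1 (-0.944), Ttpa for Cry2 (-0.789), Tars for Ciart (-0.92), Senp8 for Bhlhe40 (-0.652) and Rfxank for Bhlhe41 (-0.908). Among the members themselves, Per3 and Ciart (r = 0.88) and Ciart and Bhlhe41 (r = 0.84) ran together, and Cry1 ran opposite to Bhlhe41 (r = -0.85). The 24 means share mice across genes, so these are descriptions without a test.

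The members differed in how much mice of the same group and time varied. The SD between mice on the log2 scale was 0.20 for Cry2, larger than that of 37.4% of the 14636 genes kept, 0.33 for Bhlhe40, 0.35 for Per2, 0.45 for Per3 and 0.49 for Cry1. It was 1.04 for Per1, larger than that of 96.2% of genes, at a median of 471 counts per library. Ciart (1.12) and Bhlhe41 (0.88) also varied widely, at medians of 11 and 6 counts, where counting error alone is large. Deviations of each liver from the mean of its group and time were then compared with those of 8 genes known to respond to glucocorticoids and, for Per2, 8 heat shock genes, 16 relations in all, with permutations within group and ZT. The p-values were adjusted over the 16, and the smallest that 100000 permutations can give is 1e-05 before adjustment. The deviations of Per1 followed those of Tsc22d3, the glucocorticoid-induced leucine zipper gene, with Pearson's r = 0.87 and Spearman's rho = 0.87 over 72 livers (adjusted permutation p = 8e-05 and 5.33e-05). Within single groups of 18 livers, r was 0.90 in GF WT and 0.87 in each of the other 3, and without the 2 livers farthest from the median it was 0.85. Per1 also followed Tat, a liver amino acid catabolic enzyme (r = 0.70, rho = 0.72), Cebpd (r = 0.69, rho = 0.63) and Zbtb16 (r = 0.66, rho = 0.67), and ran against Dusp1, a phosphatase gene of the immediate early kind (r = -0.67, rho = -0.61). All 8 relations of Per1 passed. Relations of Per1 with genes outside this list were not computed, so no share over all genes stands beside that count. Apart from Tsc22d3, the relations within the list varied between the groups. In SPF WT and GF LKO, r was 0.77 and 0.02 for Sgk1, 0.51 and -0.15 for Klf9, and 0.94 and 0.38 for Cebpd. It was -0.84 and -0.39 for Dusp1, 0.77 and 0.50 for Tat, 0.62 and 0.72 for Fkbp5, and 0.74 and 0.83 for Zbtb16. Deviations of Per2 followed Hspa8 (r = 0.46, rho = 0.41, adjusted permutation p = 0.00531 and 0.00848), Hsph1 (r = 0.45) and Hsp90aa1 (r = 0.45), with r of Hspa8 0.56 in SPF WT and 0.24 in GF WT and of Hsph1 0.46 and 0.25, while Hspa1a did not pass (r = 0.26, adjusted permutation p = 0.13).

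**Figure D4:**
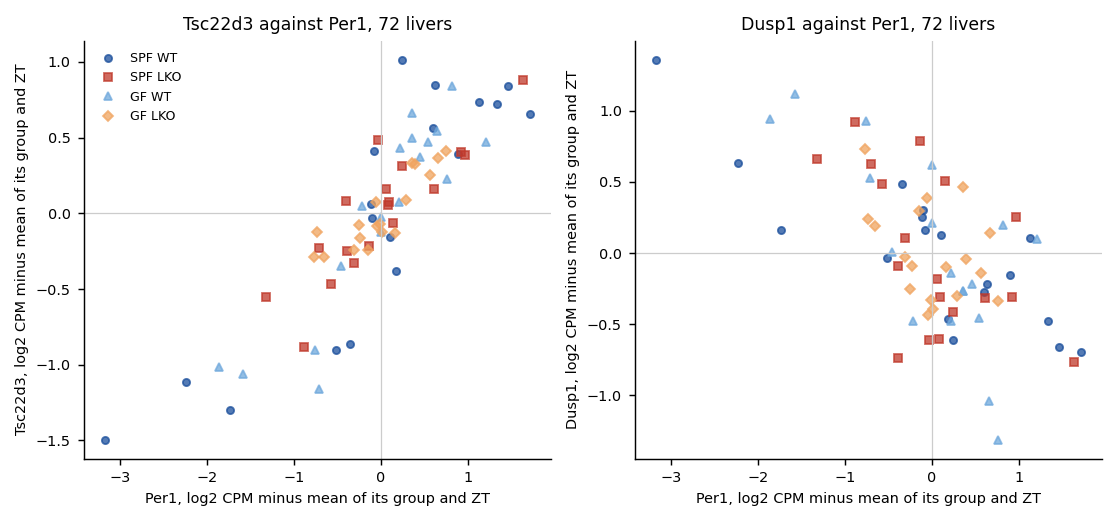
Each point is 1 of 72 livers, with the horizontal axis giving Per1 and the vertical axes Tsc22d3 (left) or Dusp1 (right), all as log2 CPM minus the mean of the liver's group and ZT. Colours and shapes give the group. Tsc22d3 rises with Per1 (r = 0.87) and Dusp1 falls (r = -0.67), and the 5 livers with the lowest Per1 are from WT groups.

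In levels pooled over ZT, the glucocorticoid-responsive genes did not move as 1 block with genotype: of 8 tested in SPF 1 was higher and none lower in LKO (median -0.17), and in GF 1 was higher and 1 lower (median -0.18). Sgk1, a serum and glucocorticoid kinase gene, was higher at 0.59 ± 0.15 (adjusted p = 0.00369) in SPF and 0.79 ± 0.17 (adjusted p = 0.000274) in GF. Fkbp5 was at -0.56 ± 0.32 (adjusted p = 0.211) in SPF and fell by 1.14 ± 0.32 (adjusted p = 0.00539) in GF. Of the 8 heat shock genes, Hspb1 alone was called, lower in both housings at -1.08 ± 0.36 (adjusted p = 0.0261) and -1.70 ± 0.2 (adjusted p = 6.64e-09). The list medians were -0.29 in SPF and -0.30 in GF.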

How the data were processed

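RNA of 72 livers was sequenced as single reads from stranded mRNA libraries. The authors aligned reads with STAR 2.6.1b to mm10 and counted them per gene with featureCounts 2.0.0 (Ensembl release 97 annotation), and they deposited raw counts, with no normalization. Groups, ZT and replicate numbers came from the sample titles. The 8 members and the lists of other genes were chosen with earlier results of these data known. Counts were tested in R 4.3.3 with edgeR 4.0.16: TMM scaling, the default filter on low counts, quasi-likelihood F tests and Benjamini-Hochberg adjustment over all genes tested, called at 0.05. Pooled comparisons used the 36 libraries of a pair of groups without ZT, comparisons by ZT the 12 libraries of that ZT, and rhythm tests the 24 means of group and ZT, with cosine and sine contrasts of 24 h. Amplitude and peak time came from least squares on log2 CPM with a prior count of 0.5. Errors of fold changes and of fitted values are standard errors. Alternatives were DESeq2 1.42.0, no count filter, ZT terms, a replicate block and leaving out libraries. The scripts were tested on simulated counts. Named genes were all members and, from each list, at most 4 called genes with the largest fold changes, and for each member the 3 genes with the highest and the 1 with the lowest correlation of pattern, except 1 gene that is not reported here. Total counts of 17369927 to 22076113 per library set the precision, and intervals on summed counts cover counting error only.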

Additional observations from a re-analysis of the deposited data

Results flagged for a closer look

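The 24 h pattern over ZT differed between LKO and WT by the test of the difference itself for 11 of the 16 combinations of member and housing. In SPF mice these were Per2 (adjusted p = 0.0021), Per3 (2.92e-06), Cry1 (0.00015), Cry2 (6.57e-05) and Bhlhe41 (0.0293), all by edgeR. In GF mice they were Per2 (3.26e-05), Per3 (6.47e-10), Cry1 (0.000144), Cry2 (0.00865), Ciart (0.0197) and Bhlhe41 (0.0493). Per3 in both housings, Cry2 in SPF and Per2 in GF were called under each replicate number left out, and the others lost the call under at least 1. No statistical test for a single outlying liver was run, since each group and ZT held 3 livers. The 4 doubted libraries were picked after levels of Arntl, Npas2, Nr1d1 and Alb were seen beside the other livers. Nr1d1 was at 85.1 CPM against 3.10-8.56 in SPF WT ZT14 replicate 3, and at 9.36 against 49.2-50.5 in GF WT ZT6 replicate 3.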

How the results depend on the processing

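Across the summary counts, 456 values under alternatives stayed within 1.5 times the count given in the report, 18 were higher and 17 lower. For each comparison of groups by ZT, 72 of these values came from leaving out 1 liver. Only the ZT of that liver was then refitted, and the calls of the other ZT were kept. Those counts could therefore move little, and the tally does not measure robustness. No called member changed direction under any of the alternatives. The causes were not tested, and at 3 mice per group and time the spread between mice limits the tests by ZT.

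With the 24 means of group and ZT, GF against SPF called 3 members in WT and 3 in LKO, and by ZT 1 in LKO. Deviations of same-numbered mice had a median r of 0.0 over 108 pairs, 18 of them over 0.1. For mice with other numbers, 25 of 216 pairs were over 0.1. These values over all genes do not show whether same-numbered mice shared deviations in single genes. With the replicate block, GF against SPF called 2 in WT and 4 in LKO, and the rhythm was called for 2 members in SPF LKO and 1 in GF LKO. With the 6 ZT as levels the rhythm was called for 1 member in GF LKO. With no filter on low counts the calls were 6 for the rhythm in GF LKO, 1 and 3 for the rhythm difference of GF against SPF in WT and LKO, 26 for genotype by ZT in SPF, and 10 and 10 for microbial status by ZT in WT and LKO. The test of whether genotype acted differently by housing then called 3 members by rhythm (Per1, Per3 and Ciart), 2 at ZT2, 4 at ZT6 and 1 at ZT14. In the rhythm tests, the fit with no filter replaced each gene's own spread by the trend over all 33349 genes, so for Per1 a quasi-likelihood dispersion of 0.677 stood in place of 14.3, and its p-values do not carry the scatter between livers. DESeq2 called 4 for microbial status by ZT in LKO. Without the 4 libraries at odds with their labels, chosen after seeing the data, the calls were 2 for the rhythm in SPF LKO, 24 for genotype by ZT in SPF and 2 for microbial status by ZT in LKO.

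Leaving out replicates gave 2 to 5 called members for genotype pooled in SPF, 1 to 5 for the rhythm in SPF LKO, 1 to 3 in GF LKO, 2 to 5 for the rhythm difference by genotype in SPF and 2 to 6 in GF. By ZT the ranges were 13 to 18 for genotype in SPF, 18 to 21 for genotype in GF, 1 to 5 for microbial status in WT and 0 to 2 in LKO.

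Of the pooled log2 fold changes that changed sign, none passed the pooled test. For genotype in SPF, Per2 was at 0.15 with the 24 means and 0.13 with the replicate block and ran from -0.17 to 0.17 when replicates were left out, Per1 from -0.67 to 0.02, and Bhlhe40 was at 0.01 with the block and ran from -0.19 to 0.04. For genotype in GF, Per1 was at 0.01 with the 24 means and 0.04 with the block and ran from -0.48 to 0.23, and Per2 was at 0.0 with the 24 means. For microbial status in WT, Per1 was at 0.02 with no filter, 0.03 with the block and 0.06 without the 4 libraries and ran from -0.1 to 0.07, Cry2 was at 0.01 with the 24 means and 0.02 with no filter and ran from -0.06 to 0.0, Ciart was at -0.63 with the 24 means and -0.15 with the block and ran from -0.16 to 0.16, and Bhlhe41 ran from -0.39 to 0.17. The difference of the genotype effect on Cry1 between GF and SPF ran from -0.39 to 0.03.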
